A study of Homo sapiens with 19 samples.

Results

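The nuclear genes that encode subunits of respiratory complexes II to V were examined for binding of ERRα in breast cancer cells. They were taken by symbol (SDHA, SDHB, SDHC, SDHD, CYC1 and every symbol starting with UQCR, COX4, COX5, COX6, COX7, COX8 or ATP5), which gave 51 of 19794 protein-coding genes. Complex II had 4 genes, complex III 10, complex IV 17 and complex V, the ATP synthase, 20. One of the 51, ATP5MF-PTCD1, is a readthrough gene that starts where ATP5MF starts, so the set holds 50 distinct starts.

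ERRα ChIP-seq was done in SKBr3 and BT-474, breast cancer cell lines that overexpress the receptor tyrosine kinase ERBB2, and 8 peak lists were deposited. SKBr3 and BT-474 cells were starved of serum for 24 h and given vehicle (PBS), EGF or heregulin (HRG), each growth factor labelled at 100 μM, for 90 min. pSKBr3 are untreated parental cells and LRSKBr3 are lapatinib-resistant cells kept in 2 μM lapatinib, an inhibitor of EGFR and ERBB2, so that line and drug changed together. Each SKBr3, pSKBr3 and LRSKBr3 list pools 2 ChIP libraries against an input, whereas each BT-474 list rests on 1 ChIP library and the 3 BT-474 lists share the vehicle input. No list from cells without ERRα was used here.

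With 1 list per condition there is no spread between replicates, and no difference between lists could be tested. The lists held between 22539 and 41271 peaks that covered between 32.2 and 91.5 Mb. They hold no read counts, so depth is unknown, and no expression values, so the identity of the cell lines could not be checked against marker genes. No list held a peak on the mitochondrial chromosome, which encodes further subunits of complexes III, IV and V.

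Complex II (succinate dehydrogenase) passes electrons from succinate to ubiquinone, complex III carries them on to cytochrome c, and complex IV (cytochrome c oxidase) gives them to oxygen. Complexes III and IV pump protons as they do so, and complex V lets the protons flow back to make ATP. ERRα is an orphan nuclear receptor known as a regulator of these genes, which it binds with the coactivators of the PGC-1 family through a short DNA word, the ERR response element (ERRE).

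The sequences in which this word lay near a start are shown first. Every one of them lay inside a peak of all 8 lists, and no share over all genes is given beside this. Peaks of these genes centred within 1 kb of a start had median widths of 1685 to 2384.5 bp per list. Such a peak can cover a word near the start without being centred on it. The exact word TCAAGGTCA was sought on both strands within 1 kb of the canonical start of each gene. It was found in 9 of the 51 genes (17.6%, against 2.4% of all 19515 genes with a canonical start), and the readthrough gene counts its site with ATP5MF. Each sequence below is read 5′ to 3′ on the strand that carries the word, from the GRCh37 (hg19) reference, with the word in capitals.
SDHB (chr1:17380151-17380179, minus strand): cttgaattgcTCAAGGTCAcatggcaagc
SDHC (chr1:161284530-161284558, plus strand): gaaaataactTCAAGGTCAgccacccatg
SDHD (chr11:111957598-111957626, minus strand): tcctgagggcTCAAGGTCAtccaccaacc
COX4I2 (chr20:30226682-30226710, minus strand): tcccagtgttTCAAGGTCAccctcatgcc
COX6A1 (chr12:120876506-120876534, plus strand): attctcttctTCAAGGTCAtacaataagt
ATP5F1B (chr12:57039557-57039585, plus strand): gttccccggcTCAAGGTCAtggggcggca
ATP5MC3 (chr2:176046514-176046542, plus strand): aggaagacacTCAAGGTCActttgtaaca
ATP5MF (chr7:99063243-99063271, minus strand): ggtgacctgtTCAAGGTCAcaactcgtgc

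A second set has another base at the second place of the word (TNAAGGTCA), and it is shown for 5 genes, picked after their peaks were seen, with such a site inside a peak of all 8 lists. The first 3 lines come from intron 1 of ATP5F1A, which holds 3 copies of the same word on the gene's strand.
ATP5F1A (chr18:43677831-43677859, minus strand): ggatcttgggTGAAGGTCAgggcttgggc
ATP5F1A (chr18:43677743-43677771, minus strand): cgcgtcccgcTGAAGGTCAgaaaactgct
ATP5F1A (chr18:43677682-43677710, minus strand): tgacattgtgTGAAGGTCAgcaggcccag
SDHA (chr5:218748-218776, plus strand): cgcgtccgggTGAAGGTCAcaaccccgcg
UQCRC2 (chr16:21965032-21965060, plus strand): gagagacttcTGAAGGTCActccggtact
COX7C (chr5:85914275-85914303, plus strand): ggacccgaaaTGAAGGTCAttggaaaatc
ATP5MC3 (chr2:176046203-176046231, plus strand): gaaaagaggcTTAAGGTCAagtgccctcc

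Of the 8 exact sites, 6 lay downstream of the start in an intron, 1 in exon 1 (SDHD, 15 bp after the start) and 1 upstream (ATP5MC3, 90 bp before it). The 250 bases before the start of ATP5MC3 are given because this is the only member with the exact word in front of its start. They are read on the gene's strand, where the word appears as its reverse complement in capitals.
ATP5MC3 (chr2:176046439-176046688, minus strand): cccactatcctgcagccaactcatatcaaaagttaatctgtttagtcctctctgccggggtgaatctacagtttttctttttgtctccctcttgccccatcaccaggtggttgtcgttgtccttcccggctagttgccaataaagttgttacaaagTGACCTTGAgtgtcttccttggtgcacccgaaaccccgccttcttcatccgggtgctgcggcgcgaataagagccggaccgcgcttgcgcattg

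Nearly all subunit genes had an ERRα peak in range, most of them at the promoter. A peak centre lay within 20 kb of a start for 46 of the 51 genes in the SKBr3 vehicle list (50.5% of all protein-coding genes had one) and for 44 on EGF (52.2%) and 49 on HRG (63%). In BT-474 it did so for 43 on vehicle (49.1%), 40 on EGF (38.3%) and 43 on HRG (51.3%). The pSKBr3 list had 46 (54%) and the LRSKBr3 list 48 (67.2%). In all 8 lists together 38 members (74.5%) had a peak in range, compared with 23.4% of all genes.

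Within 1 kb of a start, here called a promoter peak, the members stood further from the other genes. SKBr3 lists had a promoter peak for 41 members on vehicle (20.6% of all genes), 39 on EGF (19.3%) and 41 on HRG (32.6%). BT-474 lists had one for 37 on vehicle (16.8%), 35 on EGF (9.26%) and 33 on HRG (13.8%). The count was 42 in pSKBr3 (29.2%) and 43 in LRSKBr3 (38.7%). Across all 8 lists, 29 members had a promoter peak (56.9%, against 5.42% of all genes), and 8 had none in any list (15.7%, against 52.2% of all genes). With a limit of 500 bp, 17 members (33.3%, against 2.74% of all genes) had a peak centre that close in all 8 lists. A peak covered the start itself for 40, 38 and 42 members in SKBr3 vehicle, EGF and HRG (19.9%, 18.5% and 32.2% of all genes) and for 36, 34 and 34 in BT-474 (17.3%, 8.73% and 13.4%). It did so for 42 in both pSKBr3 (27.1%) and LRSKBr3 (37.3%), and for 30 in every list (5.51%). Over the lists, the share with a promoter peak ran from 9.26% to 38.7% for all genes and from 64.7% to 84.3% for the members.

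**Figure D1:**
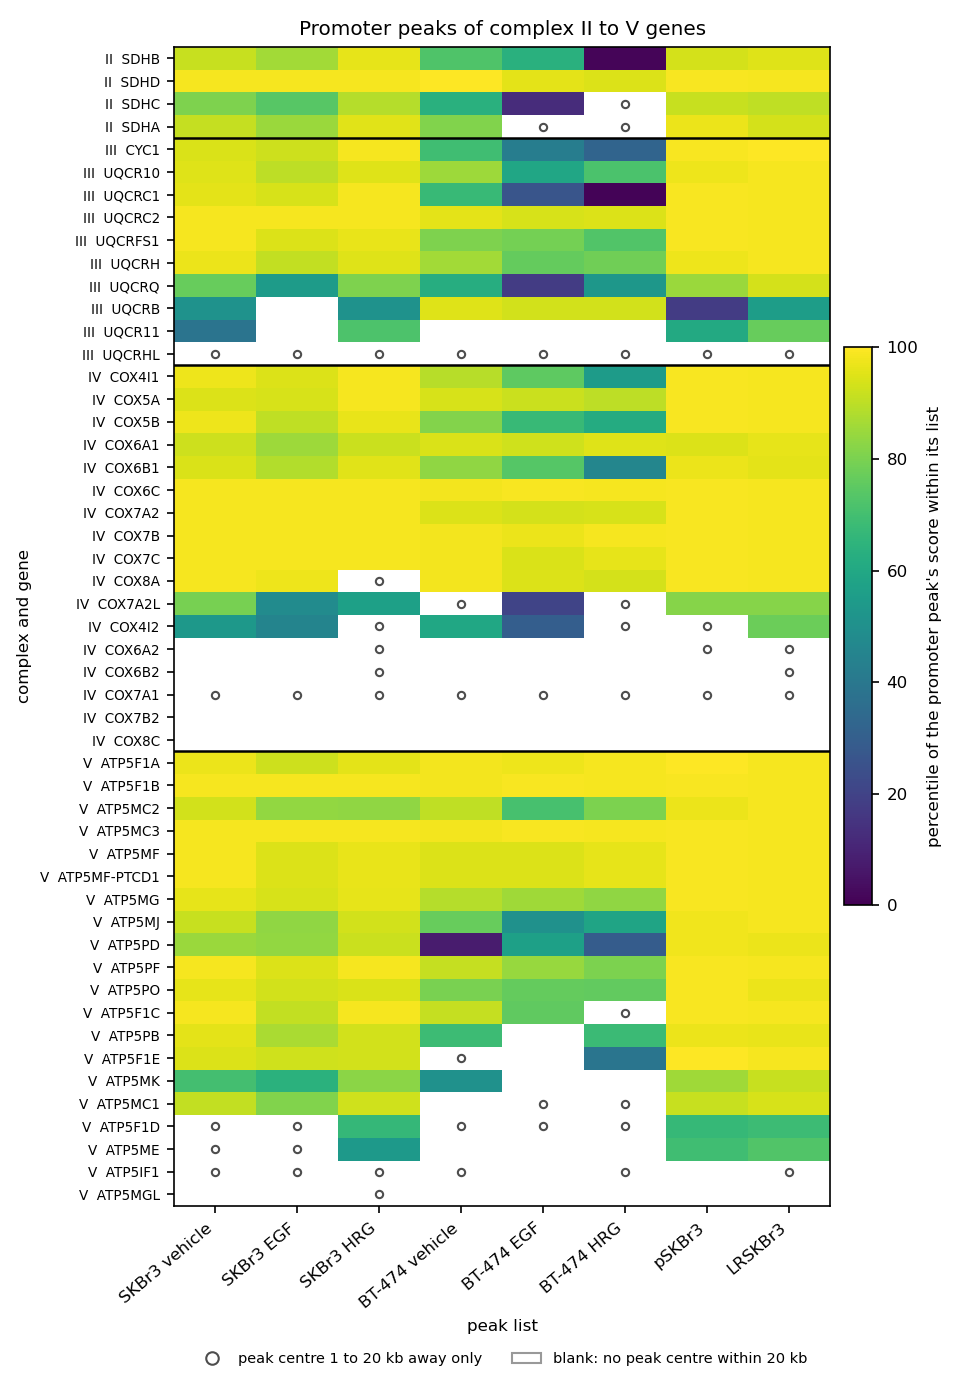
Promoter peaks of the 51 genes (rows, grouped by complex) in the 8 lists (columns). Colour gives the percentile of the promoter peak's score within its own list, a circle marks a gene with a peak centre 1 to 20 kb away only, and blank cells have no peak centre within 20 kb; 29 rows are coloured throughout.

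**Figure D2:**
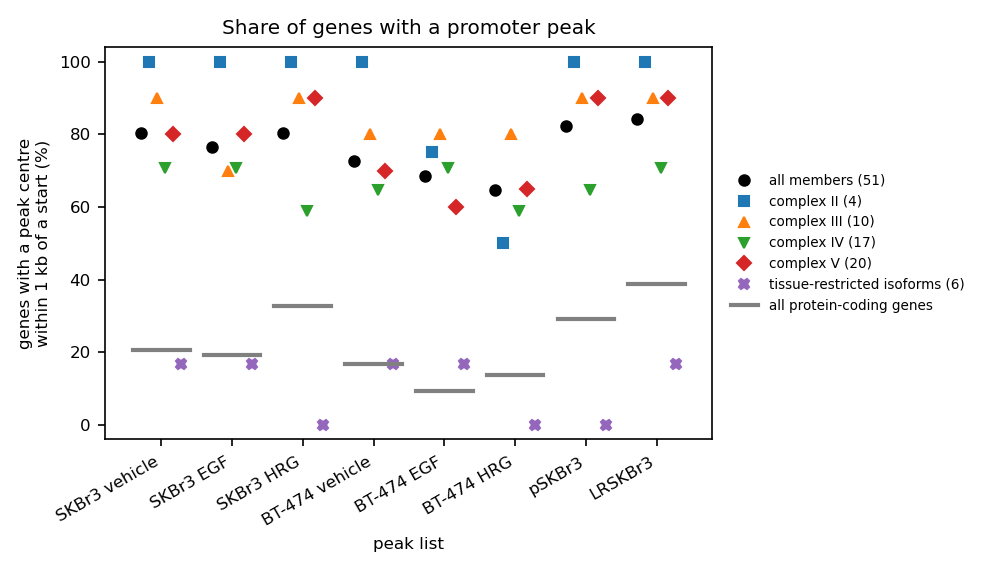
Share of genes (%) with a peak centre within 1 kb of a start in each list, for all 51 members, each complex, the 6 tissue-restricted isoforms of complex IV and, as grey lines, all protein-coding genes. All members lie between 64.7% and 84.3%, and the grey lines between 9.26% and 38.7%.

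The peaks of the members also ranked high. Each peak carries a score from the authors, which was taken as that of MACS and turned into a percentile within its own list. Peaks in all 8 lists bear MACS names, but comment lines at the head of the 3 SKBr3 lists name another caller, FindPeaks. Many peaks share a score of 3100, which lies at a percentile between 98.3 and 98.9 depending on the list, so order among the strongest peaks is lost. The median promoter percentile of the members was 96.1 in SKBr3 vehicle (62.4 for all genes with a promoter peak), 92.5 on EGF (56.6) and 95.7 on HRG (59.0). It was 89.3 (54.5), 79.1 (62.1) and 80.2 (57.6) in BT-474 vehicle, EGF and HRG, 98.8 (64.1) in pSKBr3 and 98.7 (63.6) in LRSKBr3. Of the members with a promoter peak, 14 (34.1%), 8 (20.5%) and 14 (34.1%) reached a score of 3100 in SKBr3 vehicle, EGF and HRG, where 4.76%, 3.92% and 4.07% of all genes with a promoter peak did. In BT-474 the members were 8 (21.6%), 3 (8.57%) and 5 (15.2%), against 4.23%, 3.49% and 4.63% of all such genes. In pSKBr3 they were 23 (54.8%, against 4.53%) and in LRSKBr3 26 (60.5%, against 4.42%).

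All 4 genes of complex II had a peak in range in every list (23.4% of all genes), and the starts of 3 were covered in all 8 lists (5.51% of all genes), with that of SDHB not covered in BT-474 HRG. SDHD, a membrane anchor, was the strongest, with a percentile of 98.6 in each SKBr3 list, 99.98, 95.9 and 94.5 in BT-474 vehicle, EGF and HRG, 98.8 in pSKBr3 and 98.7 in LRSKBr3. Its peak centres lay between 111 and 281 bp before the start in all 8 lists, on the side of TIMM8B, which begins nearby on the opposite strand, and were nearer to the start of TIMM8B in 8 of 8. Binding at SDHD and at TIMM8B could therefore not be separated. SDHA, the flavoprotein that oxidises succinate, had percentiles of 91.3, 84.8 and 95.6 in the SKBr3 lists, 97.1 in pSKBr3 and 93.4 in LRSKBr3. In BT-474 its promoter peak ranked at 81.0 on vehicle, and on EGF and HRG the centres moved to 1105 and 1118 bp from the start while the peaks still covered it.

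SDHB, the iron-sulphur subunit, ranked at 91.7, 86.2 and 96.1 in SKBr3, at 93.6 in pSKBr3 and at 95.1 in LRSKBr3, but at 72.4, 63.5 and 1.47 in BT-474 vehicle, EGF and HRG. Its peak in the BT-474 HRG list was thus among the weakest called there, and it was the one list in which the peak began after the start. SDHC, the other membrane anchor, ranked at 80.6, 73.9 and 88.7 in SKBr3, at 91.5 in pSKBr3 and at 90.6 in LRSKBr3. It ranked at 63.6 and 12.6 in BT-474 vehicle and EGF, and on HRG a wide peak covered its start with the centre at 1271 bp. For SDHB, SDHC and SDHD the lowest promoter percentile belonged to a BT-474 growth factor list. The same 3 genes carried the exact ERRE word shown above, and SDHA carried the TGAAGGTCA form.

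Complex III had a promoter peak at 7 to 9 of its 10 genes per list (9.26% to 38.7% of all genes). UQCRC2, a core protein, ranked highest, with percentiles of 98.6 in the SKBr3 lists, 95.9, 93.8 and 94.9 in BT-474 vehicle, EGF and HRG, and 98.8 and 98.7 in pSKBr3 and LRSKBr3. UQCRFS1, the Rieske iron-sulphur protein, followed with 98.6, 94.7 and 96.8 in SKBr3 and 80.7, 79.1 and 72.8 in BT-474. CYC1, cytochrome c1, ranked at 94.2, 92.4 and 98.6 in SKBr3 and at 69.3, 42.3 and 32.3 in BT-474. The other core protein, UQCRC1, had the widest gap in the complex, with 95.8, 93.8 and 98.6 in SKBr3 and 67.3, 26.5 and 0.98 in BT-474. In the BT-474 HRG list its peak no longer covered the start. These are ranks of promoter peaks. Among all peaks within 20 kb, the strongest of CYC1 never ranked below 65.0 and that of UQCRC1 never below 26.5. UQCR10, UQCRH and UQCRQ also had a promoter peak in all 8 lists, and UQCRQ, whose start is 5 bp from that of GDF9, had percentiles of 17.8 to 93.4.

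UQCRB, a subunit of the ubiquinone-binding region, ran the other way. Its promoter peak ranked at 95.1, 93.3 and 93.1 in BT-474 vehicle, EGF and HRG, at 51.0 in SKBr3 vehicle and HRG, at 17.8 in pSKBr3 and at 55.5 in LRSKBr3. SKBr3 EGF had no peak for it in range, and the nearest centre was 1095282 bp away. UQCR11, a small subunit, had a promoter peak in SKBr3 vehicle and HRG (38.5 and 72.2), pSKBr3 (60.8) and LRSKBr3 (76.7), and none within 20 kb in the remaining lists. Its nearest centre lay 47659 bp away in SKBr3 EGF and 125856 to 198674 bp away in the BT-474 lists. UQCRHL, an intronless copy of the hinge protein gene UQCRH, never had a promoter peak, and its nearest centre stayed between 7064 and 7528 bp in all 8 lists. UQCRH itself had one in all 8 (76.3 to 98.7). How reads that fit both copies were placed is not shown by the peak lists, so the absence at UQCRHL is uncertain.

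Within complex IV, the 9 genes with a promoter peak in all 8 lists (52.9%, against 5.42% of all genes) were COX4I1, COX5A, COX5B, COX6A1, COX6B1, COX6C, COX7A2, COX7B and COX7C, none of them a tissue-restricted isoform. COX6C, a small membrane subunit, reached the tied score of 3100 in every list (98.3 to 98.9), and COX7B did so in 7, with 97.0 in BT-474 EGF. COX7A2 ranked at 98.6 or above in the SKBr3-derived lists and at 94.7, 93.7 and 94.0 in BT-474 vehicle, EGF and HRG. COX7C ranked at 94.5 to 98.8 over the 8 lists. COX4I1, the largest nuclear-encoded subunit, ranked at 97.3, 94.8 and 98.6 in SKBr3 and at 89.3, 75.0 and 54.9 in BT-474. COX5B, the zinc-binding subunit, ranked at 97.4, 90.4 and 96.8 in SKBr3 and at 81.6, 67.5 and 61.7 in BT-474, while COX5A stayed at 89.9 or above throughout.

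Complex IV subunits 4, 6A, 6B, 7A, 7B and 8 each come as a ubiquitous form and a form restricted to certain tissues. All 6 ubiquitous forms had a peak in range in every list (23.4% of all genes), and 5 had a promoter peak in every list (5.42% of all genes). The sixth, COX8A, had one in 7 lists, and in SKBr3 HRG its peak covered the start with its centre at 1314 bp. Of the 6 restricted forms, 2 to 4 (33.3% to 66.7%) had a peak in range per list, which is near the share of all genes (38.3% to 67.2%). A promoter peak was present at 0 or 1 of the 6 (0 to 16.7%), against 9.26% to 38.7% of all genes. In BT-474 EGF their share was above that of all genes (16.7%, against 9.26%), and in the other lists it was near or below it. Each share above 0 rests on 1 gene, COX4I2. No start of a restricted form was covered by a peak in any of the 8 lists, while 53.9% of all genes had no list with a covered start. The COX4I2 peak in BT-474 vehicle missed the start narrowly, as it began 1 bp after it.

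COX4I2, the lung form of subunit 4, was the restricted form with promoter peaks. Its nearest centre lay 824 to 1043 bp downstream of the start in all 8 lists, around the exact word shown above at 981 bp in intron 1, and within 100 bp of that word in 7 lists. It passed the 1 kb limit in SKBr3 vehicle (53.2), SKBr3 EGF (45.0), BT-474 vehicle (59.7), BT-474 EGF (29.8) and LRSKBr3 (77.7). In SKBr3 HRG (71.5), BT-474 HRG (49.5) and pSKBr3 (34.6) the centre lay at 1003, 1043 and 1036 bp, so these lists differ from the rest only by the limit. COX4I1, its counterpart, had centres 74 to 396 bp from the start.

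The other restricted forms had no promoter peak. COX7A1, a heart and muscle form, had a peak in range in all 8 lists, the strongest at percentiles of 89.3 to 98.6, but 14654 to 15650 bp away and nearer to the start of CAPNS1 in 8 of 8. COX6A2, also of heart and muscle, had a peak in range in SKBr3 HRG (57.4), pSKBr3 (20.6) and LRSKBr3 (32.7), where the nearest centre lay at 14836, 14854 and 14847 bp. In the remaining lists its nearest centre was 30719 to 80427 bp away. COX6B2, a testis form, had a peak in range in SKBr3 HRG (40.7) and LRSKBr3 (17.2), with the nearest centre at 8625 and 15720 bp. COX8C, another testis form, missed the 20 kb limit narrowly and alike in all lists, with its nearest centre at 25575 to 25735 bp. COX7B2 was the most distant, at 87811 to 575960 bp. The promoter GC content (250 bases before to 50 after the start) was 66.7% in the median of the restricted forms and 55.8% in that of their counterparts, against 63.7% for all genes, and its part in the difference was not tested.

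**Figure D3:**
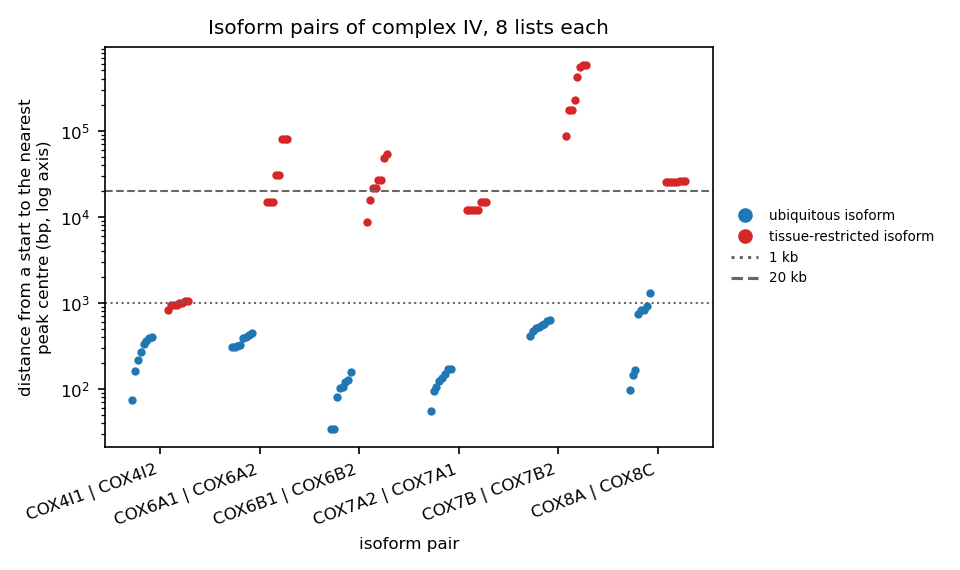
Distance in bp (log axis) from a start to the nearest peak centre for the 6 isoform pairs of complex IV, with 1 point per list. The ubiquitous forms lie at 34 to 1314 bp, COX4I2 at 824 to 1043 bp, and the other restricted forms at 8625 bp or more.

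COX7A2L, which despite its name is a supercomplex assembly protein, was counted with complex IV by its symbol. It had promoter peaks in 6 lists at 79.3, 48.2 and 57.0 (SKBr3 vehicle, EGF and HRG), 20.6 (BT-474 EGF), 82.0 (pSKBr3) and 81.7 (LRSKBr3). In BT-474 vehicle and HRG its nearest centre lay at 10530 and 1016 bp.

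The highest median percentiles of complex V belonged to a gene of the catalytic head and one of the rotor ring. ATP5F1B, the beta subunit of the head, and ATP5MC3, a c subunit of the ring, reached the tied score of 3100 in all 8 lists (98.3 to 98.9), and COX6C was the one other member that did so. ATP5F1A, the alpha subunit, ranked at 96.9, 92.5 and 95.7 in SKBr3, 98.3, 97.6 and 98.4 in BT-474, 99.98 in pSKBr3 and 98.7 in LRSKBr3. In all 8 lists the peak covered the 3 TGAAGGTCA words of its intron 1. ATP5MF, membrane subunit f, ranked at 94.8 to 98.8 over the 8 lists. ATP5MG, membrane subunit g, ranked at 83.5 to 98.8, and its copy ATP5MGL had a single peak in range at percentile 9.0 (SKBr3 HRG, 3714 bp).

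The genes for the c subunit encode the same mature protein with different leader peptides, and they did not share a pattern. ATP5MC2 had a promoter peak in all 8 lists at 71.0 to 98.7. ATP5MC1 had one at 90.8, 81.1 and 92.6 in SKBr3, 91.5 in pSKBr3 and 94.0 in LRSKBr3. In BT-474 vehicle no peak was in range of ATP5MC1 (nearest centre 335213 bp), and on EGF (33.7) and HRG (79.1) a peak covered its start with the centre at 1047 and 1244 bp.

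The central stalk was uneven. ATP5F1C, the gamma subunit, had promoter peaks in 7 lists at 75.7 to 98.8 and a covered start in BT-474 HRG, where the centre lay at 1276 bp. ATP5F1D, the delta subunit, had a promoter peak in SKBr3 HRG (66.7), pSKBr3 (67.1) and LRSKBr3 (68.6), while its strongest peak in range lay nearer to another gene in 8 of 8 lists. ATP5F1E, the epsilon subunit, had promoter peaks at 94.8, 92.7 and 93.2 in SKBr3, 99.92 in pSKBr3 and 98.7 in LRSKBr3, and at 39.0 in BT-474 HRG. In BT-474 vehicle its nearest centre was 10162 bp away, and in BT-474 EGF 55757 bp.

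All 4 peripheral stalk genes had promoter peaks, while 52.2% of all genes had none in any list. For 3 of them (ATP5PD, ATP5PF and ATP5PO) this held in all 8 lists (5.42% of all genes). ATP5PD, the d subunit, ranked at 84.8, 83.8 and 91.9 in SKBr3 and at 7.80, 56.9 and 28.9 in BT-474. ATP5PB, the b subunit, ranked at 68.5 and 68.1 in BT-474 vehicle and HRG, and in BT-474 EGF its nearest centre was 64198 bp away. ATP5PF, whose start is 68 bp from that of GABPA on the opposite strand, had a peak centre nearer to GABPA in 7 of 8 lists.

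Among the small subunits, ATP5MK had promoter peaks at 70.2, 64.0 and 82.5 in SKBr3, 50.6 in BT-474 vehicle, 85.9 in pSKBr3 and 91.8 in LRSKBr3. On EGF and HRG in BT-474 its nearest centres were 36158 and 35828 bp away. ATP5ME, subunit e, had promoter peaks in SKBr3 HRG (54.2), pSKBr3 (69.2) and LRSKBr3 (72.8), and no peak in range in BT-474, where the nearest centre lay 113290 to 113478 bp away. ATP5IF1, the inhibitor of ATP hydrolysis, had no promoter peak in any list. It was the only member without one that is neither a tissue-restricted isoform nor a copy, and its nearest centres lay at 10321 to 78087 bp. Leaving out the restricted isoforms, the copies UQCRHL and ATP5MGL and the readthrough gene, 32 to 41 of 42 genes had a promoter peak per list (9.26% to 38.7% of all genes) and 28 had one in all 8 (5.42%).

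The peaks lay mostly just inside the genes. Over the lists, 75.6% to 97.3% of the members with a promoter peak had its centre downstream of the start, compared with 43.2% to 47.3% of all genes. The median centre of the members lay 168 bp (pSKBr3) to 405 bp (BT-474 EGF) downstream, and that of all genes 9 to 42 bp upstream. In SKBr3 the members' share downstream was 87.8%, 84.6% and 75.6% on vehicle, EGF and HRG, in BT-474 97.3%, 94.3% and 87.9%, in pSKBr3 83.3% and in LRSKBr3 90.7%. Of the members with a promoter peak in all 8 lists, SDHD stood apart with all its centres upstream. With genes that have another gene's start within 1 kb left out, the members' share was 73.9% to 100% and that of all genes 44.9% to 50.3%, an alternative chosen after the positions had been seen. Member peaks were also wider, with medians of 1685 to 2384.5 bp per list compared with 1269 to 1973 bp for the promoter peaks of all genes.

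**Figure D4:**
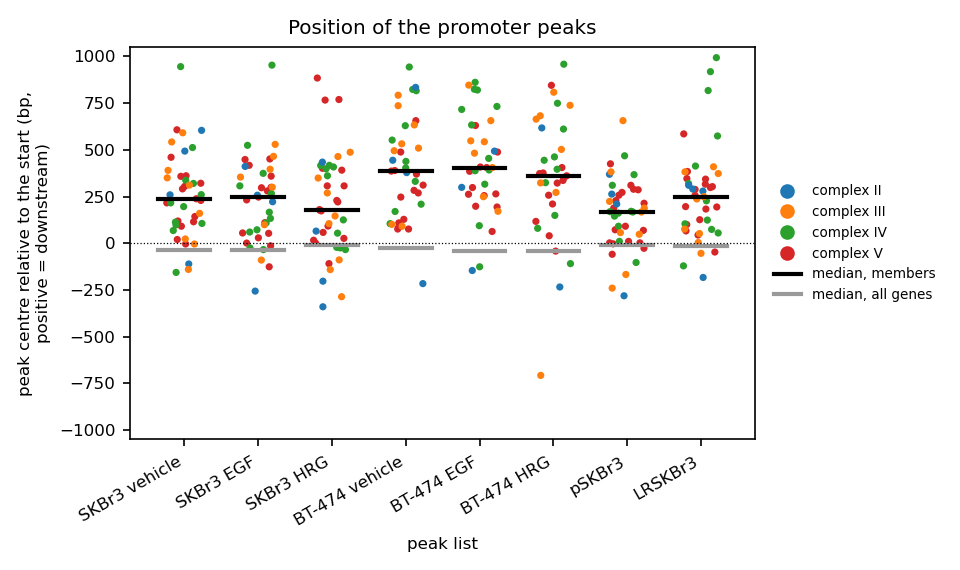
Position of the promoter peak centre of each member relative to its nearest start (bp, positive downstream) in each list, coloured by complex, with the median of the members in black and of all genes in grey. Black lines lie between 168 and 405 bp and grey lines between -42 and -9 bp.

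The ERRE half-site lay on the same side. The word AAGGTCA occurred within 1 kb of the canonical start in 36 of 51 members (70.6%, against 25.2% of all genes). In the members 11 such words lay before the start and 46 after it, whereas over all genes 3138 lay before and 2697 after. A word after the start was present in 64.7% of the members and 12.7% of all genes, and a word before it in 21.6% and 14.6%. By complex, the half-site was found at all 4 genes of complex II, 8 of 10 of complex III, 11 of 17 of complex IV and 13 of 20 of complex V. A match of letters is not a binding site, and several promoters share a half-site with a longer word, which is counted under both.

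The longer words were less frequent. TNAAGGTCA, which includes the exact word, was found in 18 members (35.3%, against 6.18% of all genes), among them all 4 of complex II, 2 of complex III (CYC1 and UQCRC2), 4 of complex IV and 8 of complex V. The exact word was found in 3 genes of complex II, none of complex III, 2 of complex IV and 4 of complex V including the readthrough gene. Most of the exact words lay more than 100 bp from the peak centre. Within 100 bp of a promoter peak centre the exact word was present in 0 to 4 members per list, and within 250 bp in 4 to 8. At the limit of 100 bp it was in 0 to 9.30% of member promoter peaks and 1.66% to 5.0% of all promoter peaks. In flanking windows 2 kb away from all promoter peaks its share was 0.198% to 0.383%. The member share was the lower one in SKBr3 HRG (0, against 1.71%), BT-474 EGF (2.94%, against 5.0%) and BT-474 HRG (3.1%, against 3.83%). COX4I2 and ATP5F1B met the limit of 100 bp at a promoter peak in 4 lists each. At ATP5MC3 the centres lay 317 to 417 bp from the exact word shown above but within 100 bp of the TTAAGGTCA word of intron 1 in 7 lists.

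**Figure D5:**
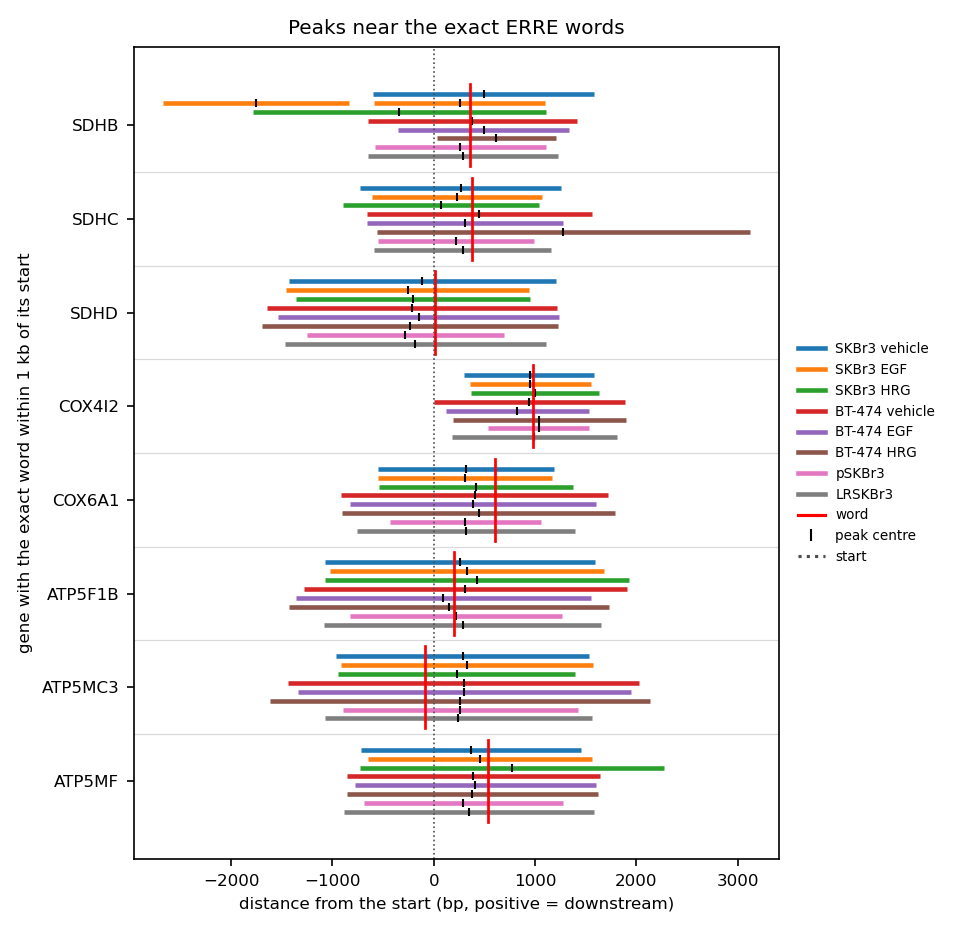
Peaks near the exact ERRE word at 8 genes, as spans in bp from the start, 1 bar per list, with black ticks at peak centres and red lines at the word. All 8 lists have a bar across the red line at every gene, and at COX4I2 the centres gather at the word about 1 kb into the gene.

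Words of other factors known for respiratory genes were counted in the 300 bases from 250 before to 50 after the start, on both strands. The nuclear respiratory factor word GCATGCGC was present in 7 members (13.7%, against 4.26% of all genes). The ETS word CCGGAAGT was present in 10 (19.6%, against 6.14%), the YY1 word AAGATGGCG in 4 (7.84%, against 2.86%) and the CRE word TGACGTCA in 3 (5.88%, against 2.71%). The exact ERRE word was in this narrow window at SDHD and ATP5MC3 (3.92%, against 0.174% of all genes), and the half-site AAGGTCA at 9 members (17.6%, against 2.84%).

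Few calls at these genes differed between growth factor and vehicle lists, and no difference could be tested. On EGF in SKBr3, no member gained a peak in range (7.68% of all genes did) and 2 lost it (5.98% of all genes), the complex III genes UQCR11 and UQCRB. On HRG in SKBr3, 3 gained one (17.3% of all genes), COX6A2, COX6B2 and ATP5MGL, all at more than 1 kb, and none lost it (4.79%). At the promoter HRG added ATP5F1D and ATP5ME in SKBr3 (2 members, 3.92%, against 15% of all genes). It left out COX4I2 and COX8A (2 members, against 2.93% of all genes), whose centres passed 1 kb as described above. At the promoter EGF added none in SKBr3 (3.47% of all genes) and lost the same UQCR11 and UQCRB (4.72%). The shares of gains lay below those of all genes, but 46 of the 51 members already had a peak in range on vehicle.

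In BT-474, EGF left 1 member with a gained peak in range (ATP5MC1; 3.07% of all genes) and 4 with a lost one (13.9% of all genes), all of complex V (ATP5F1E, ATP5IF1, ATP5MK and ATP5PB). HRG gave a gain at ATP5MC1 (8.36% of all genes) and a loss at ATP5MK (6.18%). On vehicle, 43 of the 51 members already had a peak in range (49.1% of all genes). With lists of equal length, EGF gave 3 gains (4.10% of all genes) and 5 losses (8.45%), and HRG gave 1 gain (4.04%) and 3 losses (7.52%). The losses on EGF were 8 (12.7% of all genes) with scores of at least 100 and 9 (13.5%) with scores of at least 80. EGF and HRG are each compared with the same vehicle list, so the gain at ATP5MC1 and the loss at ATP5MK on both are not independent. At the promoter EGF added COX7A2L (0.798% of all genes) and left out SDHA, ATP5MK and ATP5PB (8.37%), and HRG added ATP5F1E (2.53%). HRG took 5 members out of the count in BT-474 (9.80%, against 5.6% of all genes), SDHA, SDHC, COX4I2, ATP5F1C and ATP5MK. Of these, SDHA, SDHC and ATP5F1C kept a peak over the start with a centre just beyond 1 kb, and COX4I2 moved from 943 to 1043 bp, so only ATP5MK lost its peak. By covered starts, HRG in BT-474 lost SDHB, UQCRC1 and ATP5MK (5.82% of all genes) and EGF lost CYC1, ATP5MK and ATP5PB (9.03%).

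LRSKBr3 compared with pSKBr3 gained a peak in range at COX6B2 and ATP5IF1 (2 members, against 15.1% of all genes) and lost none (1.95%). With all lists cut to the length of the shortest, no member gained a peak (5.64% of all genes) and COX6A2 lost it (6.96%), and within 5 or 10 kb no member gained one. The promoter count gained COX4I2 (11.6% of all genes), whose centre moved from 1036 to 993 bp, and lost none (2.15%), and the covered starts did not change at any member (11.5% of all genes gained and 1.4% lost one). In pSKBr3, however, 46 of the 51 members already had a peak in range (54% of all genes). A covered start was already present at 42 (27.1% of all genes), so few members could gain either. The LRSKBr3 list is longer than the pSKBr3 list, with 39777 against 22539 peaks. The 2 gains were thus not present at equal list length, and line and drug cannot be told apart in this comparison.

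The rank of the promoter peaks was also set side by side between the cell lines. Among the 29 members with a promoter peak in all 6 SKBr3 and BT-474 lists, 16 ranked lower in every BT-474 list than in every SKBr3 list (55.2%, against 35% of 1138 genes with such peaks) and 2, COX6A1 and ATP5F1A, ranked higher (6.90%, against 9.84%). Scores of 3100 and above were counted as equal. The 16 included SDHB, 6 genes of complex III (CYC1, UQCR10, UQCRC1, UQCRC2, UQCRFS1 and UQCRH), 4 of complex IV (COX4I1, COX5B, COX6B1 and COX7A2) and 5 of complex V. This comparison was chosen after the ranks had been seen, and the lists of a line are not replicates. Each BT-474 list comes from 1 library and each SKBr3 list from 2, the lists hold 26832 to 41271 and 32183 to 37195 peaks, and FindPeaks is named in the SKBr3 lists only. Cell line, library number and any difference in peak calling cannot be told apart here, and the part of list length was not tested.

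Several promoters are shared with another gene, which limits what a peak says about a member. In each list the promoter peak of 5 to 8 members (12.2% to 19.5% of those with one) lay nearer to the start of another gene, as did that of 10.7% to 15.0% of all genes with a promoter peak. SDHD with TIMM8B, UQCRQ with GDF9, COX6A1 with a readthrough gene that starts 85 bp away, and ATP5MF-PTCD1 with ATP5MF did so in all 8 lists, and ATP5PF with GABPA in 7.

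Other genes of the pathway had promoter peaks too. Of 37 complex I subunit genes, which encode the first enzyme of the chain, 22 (BT-474 EGF) to 35 (LRSKBr3) had one per list (9.26% to 38.7% of all genes) and 20 (54.1%, against 5.42%) had one in all 8. Of 44 assembly factors of complexes II to V, which build the complexes but are not part of them, 13 (BT-474 EGF) to 38 (LRSKBr3) had one, with the same shares of all genes beside them, and 11 (25.0%, against 5.42%) had one in all 8. CYCS, cytochrome c itself, had a promoter peak in 8 of 8 lists, and HCCS, the enzyme that attaches its haem, had one in the SKBr3, pSKBr3 and LRSKBr3 lists but in none of BT-474.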

How the data were processed

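ERRα ChIP-seq peak lists of 8 conditions (19 ChIP and input libraries) were used. According to the methods and processing notes, the authors aligned reads to hg19 with BWA 0.5.9, used SAMtools 0.1.18, and called peaks with MACS 1.4.1 against input at a P value cutoff of 1e-05. The deposited score of each peak is the authors' value, taken as the -10 log10 of the P value that MACS writes, and was ranked within its list only (midrank percentile). It depends on depth, which is unknown, and replicates were pooled before deposit. Comment lines of the 3 SKBr3 lists name another peak caller, FindPeaks.

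Starts were those of the protein-coding transcripts of GENCODE 44 lifted to GRCh37, and distances run from a peak centre to the nearest start of a gene. When several promoter peaks were present, the one of highest score was used. Words were searched on both strands around canonical starts. Members, lists and tests were chosen with earlier results of these data known. Every member may be named. Values were given for members lacking a peak in a list, for isoform pairs, for the 2 strongest of each complex and for those with an ERRE word near the peak centre in 4 or more lists. Values of further members, among them UQCRC1, CYC1, COX5B and ATP5PD, were given outside this rule, with the data known. Other genes are named only where their start lies nearer to a member's peak, or from the pathway lists. With 1 list per condition no statistical test was made.

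Alternatives concerned the distance, score limits, list size, starts, the nearest gene and the motif word and window. Distances and word searches recovered all planted values in simulated data. Python 3.11.15, numpy 2.4.6, pandas 2.3.3, pysam 0.24.0 and matplotlib 3.10.9 were used.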

Additional observations from a re-analysis of the deposited data

Results flagged for a closer look

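The number of members whose start was covered by a peak moved in opposite directions with HRG in the 2 cell lines, by 2 in SKBr3 (gains at ATP5F1D and ATP5ME, no loss) and by -2 in BT-474 (a gain at ATP5MC1, losses at SDHB, UQCRC1 and ATP5MK). The difference between the lines was not tested, since each condition has 1 list. Over all genes, the share with a covered start went from 19.9% to 32.2% in SKBr3 and from 17.3% to 13.4% in BT-474.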

How the results depend on the processing

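No replicate could be left out because the deposited lists pool the libraries or rest on 1 library. No paired analysis was possible because the replicate numbers shared by the groups belong to libraries that were pooled into 1 list per condition. Of 327 alternative values, 227 stayed within 1.5 times the reported value (or within its counting interval for shares downstream of the start) and 100 moved. All counts of members with a peak in range or at the promoter stayed within that limit in single lists. Within 500 bp, though, the promoter counts in BT-474 vehicle, EGF and HRG were 25, 24 and 22, against 37, 35 and 33 within 1 kb. The count with a promoter peak in all 8 lists was 17 within 500 bp. Restricted isoforms with a peak numbered 1 per list within 5 kb, within 10 kb (2 in SKBr3 HRG) and by the nearest gene, 0 or 1 within 1 kb, and 0 by covered start, and 1 in BT-474 EGF at a score of 80 or 100, 1 in pSKBr3 at 100 and 2 in LRSKBr3 at 100. Members lost on HRG in SKBr3 were 2 within 1 kb. On EGF in BT-474 the gains were 2 within 5 or 10 kb or at a score of 80 and 3 with lists of equal size, and the losses were 2 within 5 or 10 kb, 9 at a score of 80 and 8 at 100. On HRG in BT-474 the gains were 3 within 5 or 10 kb and 2 at a score of 80, and the losses were 5 within 1 kb, 2 at a score of 100 and 3 at 80, with equal lists or by covered start. LRSKBr3 gains over pSKBr3 were 0 within 5 or 10 kb, with equal lists or by covered start and 1 within 1 kb, and losses were 1 with equal lists. Members with an ERRE word at the promoter peak were 2, 5, 5, 5, 3 and 7 with TNAAGGTCA in SKBr3 HRG, the BT-474 lists, pSKBr3 and LRSKBr3, 7 to 14 with AAGGTCA (7, 10, 9, 10, 10, 14, 7 and 7 in list order), 4 to 8 in a window of 250 bp (7, 6, 5, 8, 8, 4, 5 and 7) and 9 to 11 over the whole peak (10, 10, 9, 11, 11, 9, 9 and 11). Without genes that have a neighbouring start within 1 kb, the share of centres downstream was 100% in BT-474 vehicle and 95.8% in pSKBr3. For each of these values the cause was not tested. The alternatives of covered starts, of the readthrough gene and of the side of the start were chosen after seeing the data.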
